A study of Mus musculus with 8 samples.

Results

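The E2F and G1/S entry genes described here are 10 of the 15653 genes counted in single thymocytes: the E2F transcription factors E2f1, E2f2, E2f3, E2f7 and E2f8, the pocket proteins Rb1 and Rbl1, the E-type cyclins Ccne1 and Ccne2, and the phosphatase Cdc25a. They were chosen by gene symbol from a fixed list of names, and all 10 were found in the matrix. Their levels were followed across deposited clusters 0 and 1, 6, 3 and 4, across the deposited cell cycle phase calls and across the 4 gene expression libraries.

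Most E2F factors bind DNA with a dimerisation partner of the DP family, and the family controls genes for DNA replication. In resting cells the pocket proteins, RB and its relatives, hold many E2F factors inactive. Cyclin-dependent kinases driven by D-type and then E-type cyclins release these factors by phosphorylating the pocket proteins. In the thymus, double-negative (DN) cells that have rearranged a T cell receptor beta chain leave a resting state at the DN3 stage and divide rapidly as they pass to DN4, a step known as beta-selection.

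One genotype is labelled as a GSK3B Ser389Ala knock-in (KI), a serine-to-alanine change in the kinase GSK3-beta, and wild-type C57BL/6J mice (WT) were the controls. Thymocytes of both genotypes were depleted with antibodies to MHC class II, CD11b, CD4, CD8 and kappa light chain. They were then sorted as DN4 (CD44-CD25-) or DN3 (CD44-CD25+) cells, so the groups are KI DN4, WT DN4, KI DN3 and WT DN3. Each has 1 library of 5′ gene expression and 1 of T cell receptor sequences. The number of mice behind a library, any pooling, their age and sex, and the background strain of the KI are not given in the sources used here. UMI counts do not show the base change of the knock-in, so they give no check of the genotype labels.

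With 1 library per group no difference between groups or stages has a replicate check, and no test was made. A level is given in CPM, the unique molecular identifiers (UMIs) of a gene per 1000000 UMIs summed over the cells named. Intervals are exact 95% Poisson intervals for a level, and the matching conditional intervals for a ratio, and they cover counting error only. A gene was read as 2-fold apart in a comparison only where it reached 20 CPM in either arm. Levels are compared within a gene and not between genes.

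KI DN4 held 2577 cells and 30402236 UMIs, and WT DN4 held 1477 cells and 16411164 UMIs. KI DN3 held 3298 cells and 25525613 UMIs, and WT DN3 held 2885 cells and 22652454 UMIs. Between 3 and 17 cell barcodes were shared by any pair of libraries, 54 of 10182 distinct barcodes in all. The sort was visible in Il2ra, which encodes CD25, at 3.75 CPM in KI DN4 and 3.84 CPM in WT DN4, against 425 CPM in KI DN3 and 478 CPM in WT DN3. Markers of other lineages summed to between 0.392 and 0.792 CPM for B cells (2 of 5 genes in the matrix) and between 0.177 and 0.431 CPM for erythroid cells (1 of 4). NK, innate lymphoid and NKT markers (9 of 10 in the matrix) summed to 163 CPM in KI DN4 and 254 CPM in WT DN4, and to 103 CPM in KI DN3 and 137 CPM in WT DN3. Stromal markers (3 of 5 in the matrix) summed to 27.6 CPM in KI DN4 and 25.0 CPM in WT DN4, against 191 CPM in KI DN3 and 150 CPM in WT DN3. Epcam gave 24.0 CPM of this in KI DN4 and 21.9 CPM in WT DN4, and 183 CPM in KI DN3 and 144 CPM in WT DN3, while Col1a1 was at 0.244 CPM or less in each library. Myeloid and dendritic markers (6 of 6) summed to between 116 and 157 CPM, of which Cst3 gave between 113 and 141 CPM, with Itgam, Itgax and Csf1r at 0.244 CPM or less. Gamma delta T markers (8 of 8) summed to between 386 and 608 CPM and mature alpha beta T markers (5 of 5) to between 268 and 376 CPM. The part of such cells in the levels below was not tested.

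Clusters 0 and 1 hold mostly resting DN3 cells (phase call G1 in 96.6% of KI and 96.7% of WT cells) and were summed because KI DN3 gave 95.3% of the cells of cluster 0 and WT DN3 gave 97.1% of those of cluster 1. In cluster 6, 76.2% of KI DN3 and 68.7% of WT DN3 cells were called S. Clusters 3 and 4 were found at both stages. No cell of cluster 4 was called G1 among 393 KI DN4, 251 WT DN4, 347 KI DN3 and 213 WT DN3 cells, which allows shares of up to 0.763% in KI DN4, 1.2% in WT DN4, 0.865% in KI DN3 and 1.41% in WT DN3. The clusters and phases were made by the authors from these same cells, so levels across them are a description of where each gene is found and not a test. The order in which clusters are listed here is not a time order, and none was tested. A widely used S-phase gene list holds Ccne2 and E2f8, and whether it was used here is not given.

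Promoters of 4 members are shown because they differ in which cell cycle motif they hold. Each line gives the 120 bases before a RefSeq transcription start (build GRCm38.p6) on the gene's own strand, 5′ to 3′, with the motifs in capitals. The motifs searched on both strands were the E2F words TTTGGCGC, TTTCCCGC and TTTCGCGC, the element TTTGAA of cell cycle homology regions, and the CCAAT box, and no matches overlapped in a member's window.
E2f3, chr13:29986064-29986183, minus strand: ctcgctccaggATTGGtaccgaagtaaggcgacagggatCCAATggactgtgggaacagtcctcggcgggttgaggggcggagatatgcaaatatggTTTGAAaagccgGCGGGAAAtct
E2f8, chr7:48881597-48881716, minus strand: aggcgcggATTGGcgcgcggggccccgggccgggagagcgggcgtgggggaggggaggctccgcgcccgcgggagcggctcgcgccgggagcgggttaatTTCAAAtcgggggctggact
Rbl1, chr2:157204535-157204654, minus strand: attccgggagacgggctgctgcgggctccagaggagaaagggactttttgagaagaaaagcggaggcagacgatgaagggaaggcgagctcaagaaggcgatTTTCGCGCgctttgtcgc
Cdc25a, chr9:109875459-109875578, plus strand: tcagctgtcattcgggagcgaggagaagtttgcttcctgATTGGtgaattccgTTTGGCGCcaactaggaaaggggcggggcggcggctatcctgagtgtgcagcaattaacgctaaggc

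Windows of 300 bases, from 250 before the start to 50 after it, were available for 8 of the 10 genes, with 10 windows between them. An E2F word was found in 5 of these 10 windows and in 1.84% of all 32851 promoter windows. The first base of the word lay at position -11 in E2f3, -18 in Rbl1, -67 in Cdc25a, -198 in E2f7 and 40 in E2f2. TTTGAA was found in 3 of the 10 windows, those of E2f8 at -20, E2f3 at -23 and a second E2f2 start at -31, and in 17.9% of all windows. The CCAAT box was in 6 of the 10, against 37.4% of all windows. A match describes the letters of the window and does not show that a factor binds there.

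E2f1 is the activator E2F most closely tied to release from RB, and its gene lies at chr2:154559407-154569892 on the minus strand (ENSMUSG00000027490). It was low in resting DN3 cells and high in clusters 6, 3 and 4. In DN4 it stood at 86.7 and 48.9 CPM in clusters 3 and 4 of KI, against 89.7 and 92.9 CPM in WT. In DN3 it stood at 9.17, 110.2, 90.2 and 79.5 CPM in clusters 0 and 1, 6, 3 and 4 of KI, against 9.36, 109, 99.6 and 90.4 CPM in WT. The cluster 3 over cluster 6 log2 ratio was -0.29 (-0.54 to -0.04) in KI DN3 and -0.13 (-0.40 to 0.14) in WT DN3, and the WT value turned to 0.0009 with each cell weighted equally, so the order of clusters 6 and 3 in WT lies within counting error. The value of KI DN4 cells in cluster 4 stood apart from the other 3 libraries. In DN4 cells of clusters 2 and 5, mostly called G1, E2f1 was low, at 12.1 CPM in KI and 14.3 CPM in WT in cluster 2, and at 14.9 CPM in KI and 7.25 CPM in WT in cluster 5. In cluster 7, with no G1 cell among 75 in KI DN4, it was at 75.7 CPM.

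E2f1 was highest in cells called S. Over all cells it was at 5.32, 92.1 and 31.8 CPM in G1, S and G2M of KI DN4, and at 4.48, 117 and 39.1 CPM in WT DN4. In DN3 the same phases gave 8.55, 118 and 28.1 CPM in KI and 8.80, 127 and 21.4 CPM in WT. The order S, G2M, G1 held in all 4 libraries. Inside cluster 6 S cells were likewise above G1 cells: S cells had 132 CPM and G1 cells 8.17 CPM in KI, and S cells 138 CPM and G1 cells 16.7 CPM in WT. Within cluster 4 the G2M over S log2 ratio was -1.60 in KI DN4, -1.57 in WT DN4, -2.17 in KI DN3 and -2.51 in WT DN3.

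E2f2, a second activator E2F expressed in blood cell lineages (chr4:136172394-136196057, plus strand, ENSMUSG00000018983), was high in clusters 3 and 4 and, unlike E2f1, not in cluster 6. The DN4 levels were 55.1 and 74.3 CPM in clusters 3 and 4 of KI, against 53.2 and 83.9 CPM in WT. The DN3 levels were 13.8, 18.0, 31.1 and 52.0 CPM in clusters 0 and 1, 6, 3 and 4 of KI, against 14.9, 14.2, 36.7 and 54.6 CPM in WT. Cluster 6, where E2f1 was high, had E2f2 close to the resting level. The E2f2 cluster 6 over clusters 0 and 1 log2 ratio was 0.38 (-0.10 to 0.85) in KI and -0.07 (-0.61 to 0.43) in WT. The WT value turns to 0.10 with TMM scaling. Cluster 4 exceeded cluster 3 in each library, with log2 ratios of 0.43 in KI DN4, 0.66 in WT DN4, 0.74 in KI DN3 and 0.57 in WT DN3, whose intervals all excluded 0. In cluster 4 its G2M and S levels were 61.7 and 93.8 CPM in KI DN4, 70.9 and 92.6 CPM in WT DN4, 39.6 and 63.7 CPM in KI DN3, and 51.3 and 57.0 CPM in WT DN3. The G2M level was the lower of the pair in every library, with an interval that included 0 in WT DN3 (log2 -0.15, -0.53 to 0.22). Over all cells G2M and S had 53.5 and 65.8 CPM in KI DN4, and 58.8 and 72.3 CPM in WT DN4. In DN3 they had 36.1 and 42.6 CPM in KI, and 45.4 and 38.6 CPM in WT, where G2M was the higher.

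E2f3, the third activator (chr13:29906575-29986063, minus strand, ENSMUSG00000016477), varied over a narrower range. Its levels ran from 16.4 to 21.6 CPM in clusters 3 and 4 of DN4, and from 8.69 CPM in clusters 0 and 1 of KI DN3 to 23.6 CPM in cluster 4 of WT DN3. Its interval excluded 0 for cluster 6 over clusters 0 and 1 in KI (log2 0.69, 0.13 to 1.23) and not in WT (0.37, -0.19 to 0.90). Over all cells S had the highest level in every library, at 21.9 CPM in KI DN4, 21.0 CPM in WT DN4, 17.2 CPM in KI DN3 and 21.2 CPM in WT DN3. Cluster 6 of KI DN3 was different: its S cells had 10.5 CPM and its G1 cells 30.6 CPM, from 24 and 15 UMIs (log2 -1.54, -2.53 to -0.51), while in WT DN3 the S cells had 14.8 CPM and the G1 cells 10.6 CPM (0.48, -0.74 to 1.90).

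E2f7 and E2f8 are the atypical family members, which bind E2F sites without a DP partner and repress E2F1 and its targets. E2f7 (chr10:110745439-110787384, plus strand, ENSMUSG00000020185) was sparse, with 70 UMIs in KI DN4, 30 in WT DN4, 29 in KI DN3 and 23 in WT DN3. Its level was highest in clusters 4 and 7, at 3.54 CPM (2.86 to 4.32) in cluster 4 and 6.86 CPM (3.42 to 12.3, from 11 UMIs) in cluster 7 over all libraries. The S cells of cluster 4 of KI DN4 had 5.76 CPM, from 20 UMIs. Of its UMIs in DN3, 23 of 29 in KI and 17 of 23 in WT came from cluster 4.

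E2f8 (chr7:48866429-48881596, minus strand, ENSMUSG00000046179) had the largest difference between clusters 3 and 4 in every library among members at 20 CPM or more. Among DN4 cells it reached 25.0 and 57.3 CPM in clusters 3 and 4 of KI, against 14.2 and 50.2 CPM in WT. Among DN3 cells it reached 0.239, 4.68, 10.9 and 39.9 CPM in clusters 0 and 1, 6, 3 and 4 of KI, against 0.078, 4.72, 4.45 and 41.1 CPM in WT. The cluster 4 over cluster 3 log2 ratio was 1.20 in KI DN4, 1.82 (1.43 to 2.24) in WT DN4, 1.87 (1.30 to 2.49) in KI DN3 and 3.21 (2.20 to 4.44) in WT DN3, the last with 8 UMIs in cluster 3. The KI DN4 value rests on 508 and 346 UMIs, and all 4 intervals excluded 0. Cells called G1 had almost none: 0 UMIs in both DN4 libraries, which allows up to 0.515 CPM in KI and 0.611 CPM in WT, and 0.158 CPM in KI DN3 and 0.0759 CPM in WT DN3. In cluster 3 of KI DN4 the G2M cells also had little, 3.12 CPM against 29.1 CPM in S cells, whereas in cluster 4 they had 44.5 CPM against 77.1 CPM.

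**Figure D1:**
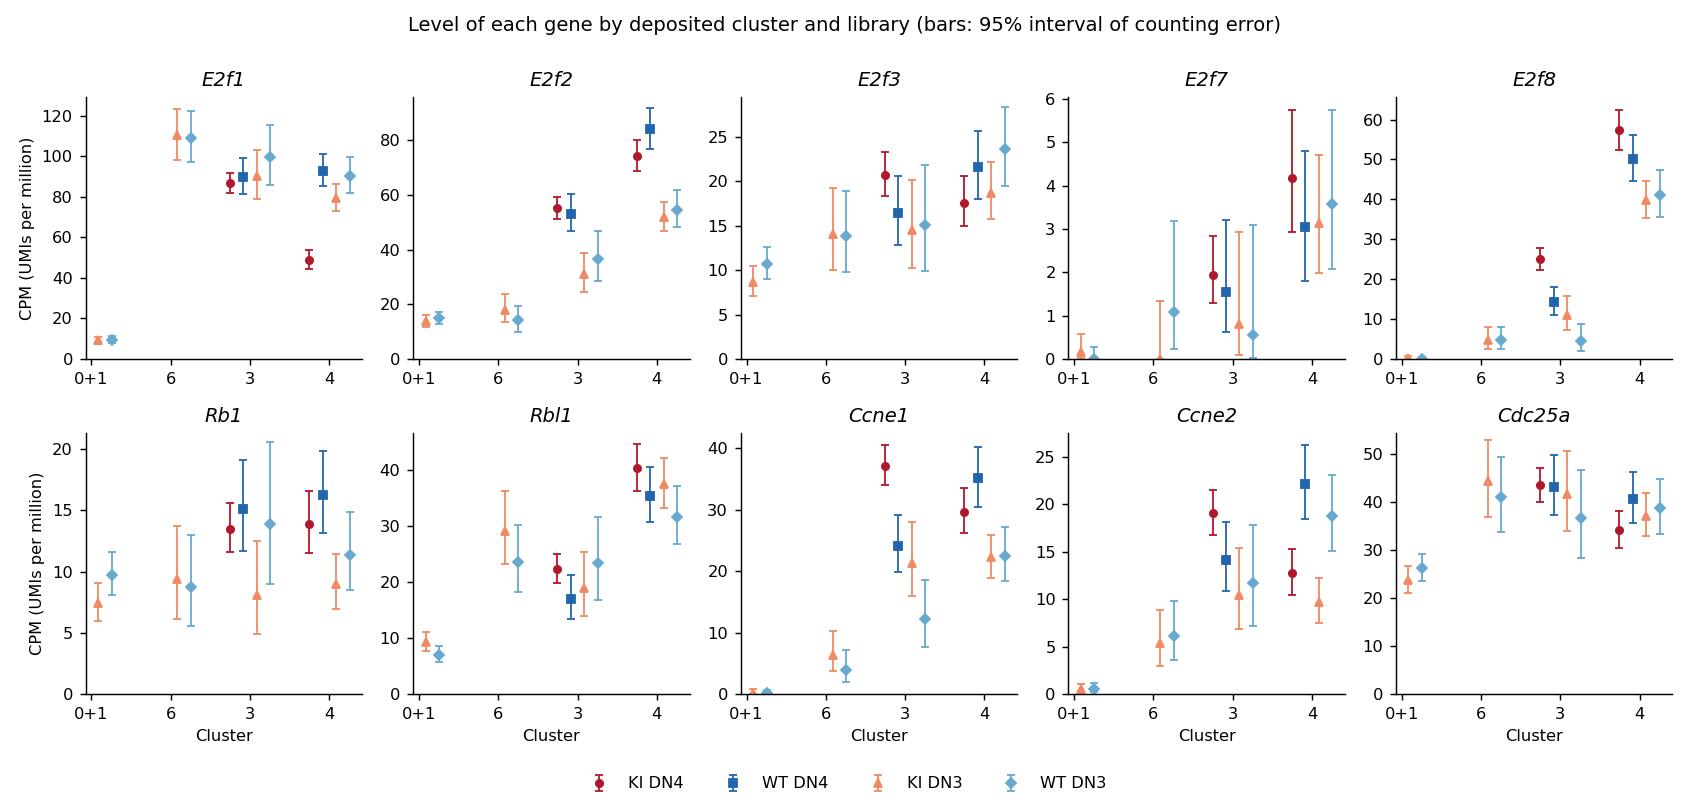
Level of each gene in CPM (vertical axis, linear, own scale per panel) in deposited clusters 0 and 1, 6, 3 and 4 (horizontal axis) for KI DN4, WT DN4, KI DN3 and WT DN3. Points are sums over cells, bars are 95% intervals of counting error and clusters 0 and 1 and 6 are drawn for DN3 alone (at most 14 cells each in DN4): E2f1 is high in clusters 6, 3 and 4, E2f2 and E2f8 are highest in cluster 4 of those drawn, and the KI DN4 point of E2f1 in cluster 4, at 48.9 CPM, lies below the other 3.

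Rb1 encodes the founding pocket protein (chr14:73183673-73325822, minus strand, ENSMUSG00000022105). Among clusters of a library with at least 50 cells, its highest levels were in clusters 2 and 5 of DN4, mostly called G1. Cluster 8, with 88 cells over all libraries and a median of 1664.5 UMIs per cell, gave 58.0 CPM (26.5 to 110) from 9 UMIs. DN4 cells had 38.9 CPM in KI and 39.9 CPM in WT in cluster 5, and 21.7 CPM in KI and 25.0 CPM in WT in cluster 2. Cluster 7 of KI DN4, with no G1 cell among 75, had 20.5 CPM (12.5 to 31.6), an interval that holds the KI cluster 2 level. In WT DN4 the share of cells with an Rb1 UMI was 30.7% in cluster 4, 17.3% in cluster 5 and 13.3% in cluster 2. These clusters had medians of 23594, 4508 and 5252 UMIs per cell. With each cell thinned to the same depth the shares were 2.79%, 9.35% and 4.96%, and both orders held in KI DN4. In clusters 3 and 4 Rb1 stood at 13.5 and 13.9 CPM in KI DN4, against 15.1 and 16.2 CPM in WT DN4. DN3 cells had 7.42, 9.36, 8.09 and 9.01 CPM in clusters 0 and 1, 6, 3 and 4 of KI, against 9.75, 8.72, 13.9 and 11.4 CPM in WT. No step between these 4 clusters had an interval that excluded 0 in either DN3 library. Cluster 5 also held the NK, innate lymphoid and NKT markers, with a sum of 1277 CPM over all libraries. The sum was 484 CPM in cluster 2, 386 CPM in cluster 7, 12.2 CPM in cluster 3 and 23.3 CPM in cluster 4. All 9 in the matrix were detected in clusters 2, 5 and 7. The part of NK, innate lymphoid and NKT cells in the Rb1 level was not tested. G1 cells of DN4 had 26.4 CPM in KI and 29.5 CPM in WT, against 7.76 CPM in KI and 9.41 CPM in WT for G1 cells of DN3.

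Rbl1 encodes the pocket protein p107, itself a known E2F target (chr2:157145893-157204534, minus strand, ENSMUSG00000027641). Its promoter is the one above with TTTCGCGC at -18. In DN4 it stood at 22.3 and 40.2 CPM in clusters 3 and 4 of KI, against 17.1 and 35.3 CPM in WT. In DN3 it stood at 9.33, 29.2, 19.0 and 37.4 CPM in clusters 0 and 1, 6, 3 and 4 of KI, against 7.10, 23.6, 23.4 and 31.6 CPM in WT. In KI DN3, though not in WT DN3, cluster 3 was below cluster 6 with an interval that excluded 0 (log2 -0.62, -1.17 to -0.08, against -0.01, -0.61 to 0.57); the difference between the genotypes was not tested. Within cluster 4 the G2M and S levels of Rbl1 were 44.5 and 33.7 CPM in KI DN4, 38.2 and 33.4 CPM in WT DN4, 36.5 and 38.3 CPM in KI DN3, and 29.4 and 33.2 CPM in WT DN3. Of these 4 G2M over S ratios, the interval excluded 0 in KI DN4 alone (log2 0.40, 0.08 to 0.73).

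Ccne1 and Ccne2 encode cyclins E1 and E2, which activate CDK2 at the start of DNA replication. Ccne1 (chr7:38097984-38107534, minus strand, ENSMUSG00000002068) was nearly absent from resting DN3 cells. The DN4 levels were 37.2 and 29.7 CPM in clusters 3 and 4 of KI, against 24.1 and 35.1 CPM in WT. The DN3 levels were 0.319, 6.48, 21.4 and 22.3 CPM in clusters 0 and 1, 6, 3 and 4 of KI, against 0.234, 4.0, 12.2 and 22.5 CPM in WT. The resting level rests on 4 UMIs in KI and 3 in WT. Over all cells Ccne1 was at 4.12, 43.1 and 15.2 CPM in G1, S and G2M of KI DN4, and at 2.65, 37.3 and 19.7 CPM in WT DN4. In DN3 the same phases gave 0.237, 21.9 and 11.5 CPM in KI and 0.152, 18.0 and 8.15 CPM in WT, so S was the highest phase in every library.

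Ccne2 (chr4:11191351-11204779, plus strand, ENSMUSG00000028212) followed a similar course at both stages. Among DN4 cells it reached 19.1 and 12.7 CPM in clusters 3 and 4 of KI, against 14.2 and 22.1 CPM in WT. Among DN3 cells it reached 0.558, 5.40, 10.5 and 9.69 CPM in clusters 0 and 1, 6, 3 and 4 of KI, against 0.624, 6.17, 11.7 and 18.7 CPM in WT. Summed over phases, the WT levels were thus higher in cluster 4 than in cluster 3 at both stages, and the KI levels were not. The cluster 4 over cluster 3 log2 ratio was -0.58 (-0.91 to -0.26) in KI DN4 and 0.64 (0.20 to 1.10) in WT DN4, and it was -0.12 (-0.78 to 0.59; 0.16 with each cell weighted equally) in KI DN3 and 0.68 (-0.02 to 1.44) in WT DN3. Whether these ratios differ between genotypes was not tested. In cells called S alone, cluster 4 was above cluster 3 in both genotypes. The levels were 24.5 (19.5 to 30.3) against 21.3 CPM (18.7 to 24.1) in KI DN4, and 30.6 against 16.8 CPM in WT DN4. In DN3 they were 15.6 against 9.77 CPM in KI and 25.9 against 12.4 CPM in WT. Cells called G2M were 58.5% of cluster 4 in KI DN4 and 37.5% in WT DN4, and 44.1% in KI DN3 and 39.0% in WT DN3. In cluster 4 G2M cells had less Ccne2 than S cells in all 4 libraries, by log2 ratios of -2.24 in KI DN4, -1.71 in WT DN4, -2.20 in KI DN3 and -1.53 in WT DN3.

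Cdc25a encodes the phosphatase that removes inhibitory phosphates from CDK2 (chr9:109875579-109893895, plus strand, ENSMUSG00000032477). It was already present in resting DN3 cells. DN4 cells had 43.4 and 34.2 CPM in clusters 3 and 4 of KI, against 43.2 and 40.7 CPM in WT. DN3 cells had 23.8, 44.3, 41.7 and 37.1 CPM in clusters 0 and 1, 6, 3 and 4 of KI, against 26.3, 41.0, 36.7 and 38.8 CPM in WT. Cluster 6 was above the resting clusters by a log2 ratio of 0.90 (0.58 to 1.21) in KI and 0.64 (0.32 to 0.95) in WT. The DN3 intervals of cluster 3 over cluster 6 and of cluster 4 over cluster 3 included 0. In KI DN4 cluster 4 was below cluster 3 (-0.35, -0.55 to -0.15). Within cluster 6 the S cells had 45.6 CPM and the G1 cells 38.8 CPM in KI (0.23, -0.48 to 1.02), and both had 41.1 CPM in WT (-0.00, -0.64 to 0.68). E2f1 differed between the same cells by log2 4.02 (2.65 to 5.90) in KI and 3.04 (2.18 to 4.06) in WT.

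**Figure D2:**
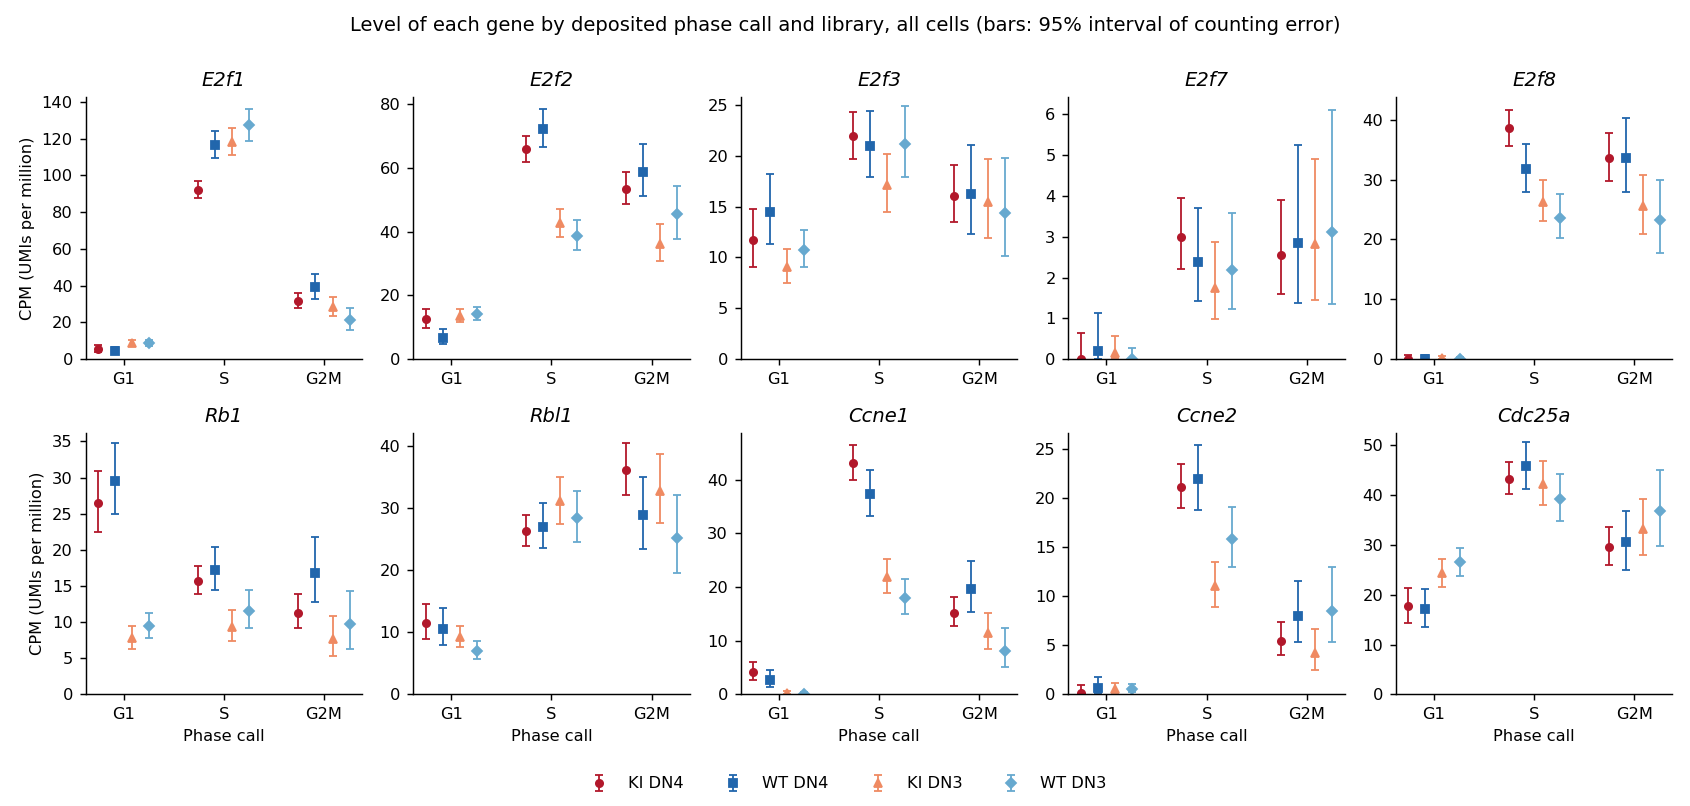
Level of each gene in CPM (vertical axis, linear, own scale per panel) in cells called G1, S and G2M (horizontal axis), summed over all cells of KI DN4, WT DN4, KI DN3 and WT DN3, with 95% intervals of counting error. E2f1, Ccne1 and Ccne2 peak in S, and E2f2, Rbl1 and E2f8 are also high in G2M. Rb1 is highest in the G1 cells of DN4, at 26.4 CPM in KI and 29.5 CPM in WT.

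Between cluster 6 and the resting DN3 cells, E2f1 and Rbl1 were the members 2-fold apart. Both were over 2-fold higher in cluster 6 in each DN3 library, by log2 ratios of 3.59 (3.27 to 3.91) in KI and 3.54 (3.23 to 3.86) in WT for E2f1, and 1.64 (1.22 to 2.07) in KI and 1.73 (1.25 to 2.21) in WT for Rbl1. They were 2 of the 3 members that reached 20 CPM, Cdc25a being the third, and 20.6% of the genes tested in KI and 20.7% in WT were 2-fold apart in either direction. E2f8, Ccne1 and Ccne2 were below 20 CPM in this comparison, though their intervals excluded 0, from 3 to 8 UMIs in the resting clusters, or 1 for E2f8 in WT. Their log2 ratios in KI were 4.29 (2.43 to 6.74) for E2f8, 4.34 (2.74 to 6.37) for Ccne1 and 3.27 (1.89 to 4.81) for Ccne2. In WT they were 5.92 (3.18 to 11.3) for E2f8, 4.09 (2.17 to 6.57) for Ccne1 and 3.31 (2.02 to 4.73) for Ccne2. The scale itself moved here: TMM scaling shifted it by -0.18, so that all log2 ratios of cluster 6 over clusters 0 and 1 would be that much higher in both libraries. The shift was -0.11 for KI DN4 over KI DN3 and over WT DN4.

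Between cluster 3 and cluster 6, Ccne1 and E2f2 were the members 2-fold apart, each in 1 library. Ccne1 was over 2-fold higher in cluster 3 in KI DN3 (log2 1.73, 0.93 to 2.58), as 1 of 5 members tested, and E2f2 in WT DN3 (1.38, 0.78 to 1.98), as 1 of 4. Of all genes tested, 5.56% in KI and 5.03% in WT were that far apart. The partner values were 1.62 (0.51 to 2.81) for Ccne1 in WT, where it reached 12.2 CPM, and 0.79 (0.26 to 1.33) for E2f2 in KI. Between cluster 4 and cluster 3, E2f8 was over 2-fold higher in cluster 4 in all 4 libraries and Rbl1 in WT DN4 (log2 1.05, 0.67 to 1.45). Rbl1 was just inside the limit in KI DN3 at 0.98. The genes tested that were 2-fold apart were 2.53% in KI DN4, 3.21% in WT DN4, 2.78% in KI DN3 and 3.65% in WT DN3.

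Other genes of the pathway were read from fixed lists. Of 24 G1/S target genes, 23 reached 20 CPM in the comparison of cluster 6 with clusters 0 and 1, and 22 of them were over 2-fold higher in both libraries. Their median log2 ratio was 2.91 in KI and 2.57 in WT, beside -0.14 in KI and -0.16 in WT over all genes tested. Of all genes tested, 8.53% in KI and 8.09% in WT were over 2-fold higher in cluster 6, and 12.1% in KI and 12.7% in WT were lower. Mcm3, a subunit of the replicative helicase, stood at 371 CPM in cluster 6 against 44.6 CPM in clusters 0 and 1 of KI, and at 350 CPM against 47.4 CPM in WT. Of the other E2F family members and partners, Tfdp1, which encodes the DP1 partner, was higher in cluster 6 at 234 CPM against 88.4 CPM in KI and 242 CPM against 106 CPM in WT. E2f6, a repressor that does not need pocket proteins, was also higher, at 35.7 CPM against 15.1 CPM in KI and 31.6 CPM against 11.3 CPM in WT. E2f4, a repressor E2F, stood at 150 CPM against 158 CPM in KI and 170 CPM against 188 CPM in WT. In all, 4 of 6 genes of that list were tested, and 2 were over 2-fold higher and 1 lower in each library.

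Regulators of cyclin E and CDK2 differed in both directions between cluster 6 and clusters 0 and 1. Of 12 on the list, 7 were tested, and 3 in KI and 2 in WT were over 2-fold higher while 2 in each were over 2-fold lower. The shares over all genes tested were 8.53% higher and 12.1% lower in KI, and 8.09% and 12.7% in WT. Cdk2 stood at 62.3 CPM in cluster 6 against 15.6 CPM in clusters 0 and 1 of KI, and at 70.5 CPM against 24.8 CPM in WT. The 2 lower genes encode inhibitors. Cdkn1a, encoding p21, stood at 20.2 CPM against 154 CPM in KI and 24.0 CPM against 172 CPM in WT, and Cdkn1b, encoding p27, at 43.9 CPM against 114 CPM in KI and 42.1 CPM against 111 CPM in WT. Of the D cyclins and partners 5 of 9 were tested, with 1 over 2-fold higher and 1 lower in each library. The higher one was Cdk4 in KI, at 785 CPM against 385 CPM, and Ccnd3 in WT, at 301 CPM against 147 CPM, and each lay just under 2-fold in the other library. Of the MuvB list 3 of 7 were tested and 1 was over 2-fold higher in each library, Mybl2, which encodes B-Myb, at 36.0 CPM against 1.52 CPM in KI and 32.7 CPM against 1.87 CPM in WT. Between clusters 4 and 3, 17 of 19 G2/M genes were over 2-fold higher in cluster 4 in KI DN4, 15 in WT DN4, 16 in KI DN3 and 16 in WT DN3.

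DN4 libraries as a whole had more of most members than DN3 libraries. The DN4 over DN3 log2 ratio was above 0, with an interval that excluded 0, for 9 of the 10 genes in both genotypes, Cdc25a being the exception. The members' median was 0.97 in KI and 0.92 in WT, beside -0.07 in KI and -0.03 in WT over all genes tested. In KI, 2 of the 6 members tested were over 2-fold higher in DN4, with 7.73% of all genes tested 2-fold apart, and in WT 3 of 7 were, with 8.23%.

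Ccne1 and E2f8 were 2-fold apart in both genotypes. Ccne1 stood at 28.1 CPM in KI DN4 and 9.44 CPM in KI DN3, and at 23.2 CPM in WT DN4 and 6.49 CPM in WT DN3 (log2 1.57, 1.37 to 1.79, in KI and 1.84, 1.56 to 2.12, in WT). E2f8 stood at 29.8 CPM in KI DN4 and 13.2 CPM in KI DN3, and at 22.7 CPM in WT DN4 and 9.89 CPM in WT DN3 (log2 1.17, 0.99 to 1.36, in KI and 1.20, 0.95 to 1.44, in WT). Rb1 was called in WT alone, at 16.6 CPM in KI DN4 and 8.31 CPM in KI DN3, and at 20.8 CPM in WT DN4 and 10.1 CPM in WT DN3. The WT log2 ratio was 1.04 (0.80 to 1.29), and the KI one was just under 2-fold (0.76 to 1.24) with both arms under 20 CPM. With clusters 2, 5 and 7 left out, Rb1 came to 0.75 in KI and 0.65 in WT, and E2f2 to 1.21 in KI and 1.47 in WT, so that E2f2 took the place of Rb1 among the members 2-fold apart in WT and joined them in KI.

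E2f2 lay just under 2-fold, at 52.3 CPM in KI DN4 and 27.1 CPM in KI DN3, and at 49.8 CPM in WT DN4 and 25.1 CPM in WT DN3 (log2 0.94 in KI and 0.99 in WT). E2f1 stood at 59.2 CPM in KI DN4 and 48.9 CPM in KI DN3, and at 66.5 CPM in WT DN4 and 46.3 CPM in WT DN3 (log2 0.28 in KI and 0.52 in WT). Ccne2 had log2 ratios of 1.46 (1.16 to 1.76) in KI and 1.04 (0.72 to 1.36) in WT, from levels under 20 CPM. Among the rest, the log2 ratio was 0.52 in KI and 0.33 in WT for E2f3, 1.02 in KI and 0.85 in WT for the sparse E2f7, and 0.34 in KI and 0.52 in WT for Rbl1. For Cdc25a it was 0.12 (-0.01 to 0.26) in KI and 0.10 (-0.06 to 0.26) in WT.

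**Figure D3:**
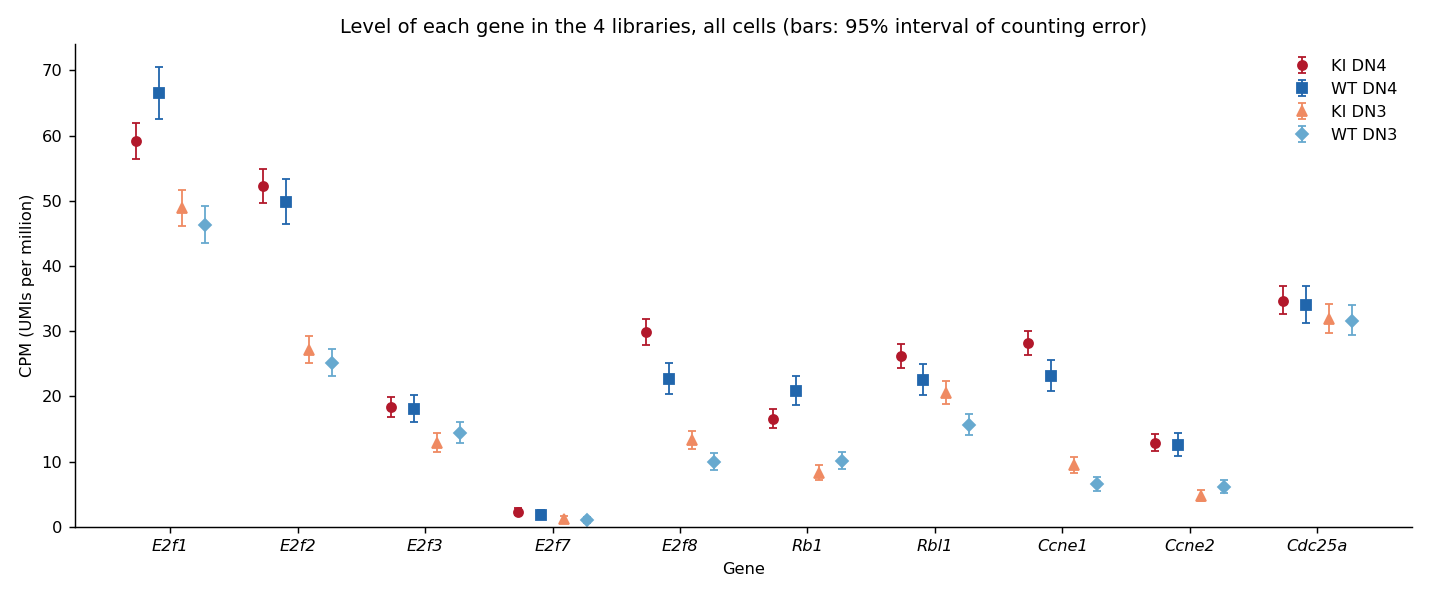
Level of each gene in CPM (vertical axis, linear) summed over all cells of KI DN4, WT DN4, KI DN3 and WT DN3, with 95% intervals of counting error. The DN4 points lie above the DN3 points for E2f2, E2f8, Rb1, Ccne1 and Ccne2 in both genotypes, while those of Cdc25a lie between 31.6 and 34.7 CPM in all 4 libraries.

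The makeup of the libraries moved with these stage ratios. Clusters 3 and 4 gave 45.6 and 29.2% of the UMIs of KI DN4, 27.5 and 36.1% of WT DN4, 9.69 and 28.7% of KI DN3, and 7.93 and 21.0% of WT DN3. The 9 DN3 markers, all detected in every library, summed to 917 CPM in KI DN4 and 998 CPM in WT DN4, against 2833 CPM in KI DN3 and 3273 CPM in WT DN3. Of the cells, clusters 3 and 4 were 29.8 and 15.3% of KI DN4, 16.4 and 17.0% of WT DN4, 4.18 and 10.5% of KI DN3, and 3.33 and 7.38% of WT DN3. The median UMIs per cell in cluster 3 were 18095 in KI DN4 and 17428 in KI DN3, and 18637 in WT DN4 and 18714 in WT DN3. In cluster 4 they were 23071 in KI DN4 and 20885 in KI DN3, and 23594 in WT DN4 and 22941 in WT DN3.

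Inside a cluster the stage ratios of E2f2 and Ccne1 were smaller but had intervals above 0 in both genotypes. E2f2 DN4 over DN3 was log2 0.82 (0.48 to 1.18) in KI and 0.53 (0.13 to 0.95) in WT in cluster 3, and 0.51 (0.33 to 0.70) in KI and 0.62 (0.40 to 0.84) in WT in cluster 4. Ccne1 was 0.79 (0.38 to 1.23) in KI and 0.98 (0.31 to 1.71) in WT in cluster 3, and 0.41 (0.13 to 0.70) in KI and 0.64 (0.30 to 0.99) in WT in cluster 4. E2f8 was likewise above 0 in all 4, from 0.29 in WT cluster 4 to 1.67 in WT cluster 3. Rb1 was above 0 in 3 of the 4, at 0.74 in KI cluster 3, 0.62 in KI cluster 4 and 0.51 in WT cluster 4, and its WT cluster 3 interval included 0 (0.11, -0.57 to 0.84). The other 6 had intervals that included 0 in at least 3 of the 4. Ccne2 (0.86) and E2f3 (0.51, 0.01 to 1.05) had intervals above 0 in KI cluster 3. E2f1 in KI cluster 4 was the one ratio with an interval below 0, at -0.70 (-0.88 to -0.52), beside 0.04 (-0.15 to 0.22) in WT cluster 4, -0.06 in KI cluster 3 and -0.15 in WT cluster 3. Ratios below 0 with intervals that included 0 were also found for Rbl1 in WT cluster 3 (-0.45), for E2f3 in cluster 4 of both genotypes (-0.09 in KI and -0.13 in WT), for Cdc25a in KI cluster 4 (-0.12) and for E2f7 in WT cluster 4 (-0.24).

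No member that reached 20 CPM was 2-fold apart between KI and WT in a whole library or a whole cluster. In whole libraries this holds for 7 members tested in DN4 and 4 in DN3, where 0.662% of all genes tested were in DN4 and 0.69% in DN3. The members' median log2 ratio was 0.05 in DN4 and 0.10 in DN3, beside -0.05 and 0.00 over all genes tested. Inside a cluster none of the tested members was either, where the share of all genes was 0.659% in cluster 3 of DN4, 0.541% in cluster 4 of DN4, 0.62% in clusters 0 and 1, 0.845% in cluster 6, 1.3% in cluster 3 of DN3 and 0.714% in cluster 4 of DN3. The differences that follow are smaller than that limit or rest on genes under 20 CPM, except that of E2f3 in the G1 cells of cluster 6. No gene of the 6 pathway lists was 2-fold apart in whole libraries, where the G2/M list had medians of 0.41 in DN4 and 0.61 in DN3; inside clusters, 4 of 16 tested G2/M genes were over 2-fold higher in KI in cluster 3 of DN4, 1 of 12 was lower in cluster 3 of DN3, and 1 of 24 G1/S genes was lower in cluster 4 of DN4.

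In whole libraries E2f8, Rbl1 and Ccne1 were higher in KI at both stages and Rb1 was lower. E2f8 gave log2 ratios of 0.40 (0.22 to 0.57) in DN4 and 0.42 (0.17 to 0.67) in DN3, Ccne1 0.28 (0.10 to 0.46) and 0.54 (0.24 to 0.85), and Rbl1, at 26.1 CPM in KI DN4 and 22.5 CPM in WT DN4 and at 20.6 CPM in KI DN3 and 15.6 CPM in WT DN3, gave 0.22 (0.04 to 0.40) and 0.40 (0.20 to 0.59). Rb1 gave -0.33 (-0.53 to -0.13) and -0.28 (-0.56 to -0.01). KI DN4 held more cluster 3 and KI DN3 more cluster 4 than WT, as given above. When the KI clusters were weighted by the WT shares of UMIs, a setting added after seeing the data, E2f8 came to 0.35 in DN4 and 0.03 in DN3, Ccne1 to 0.03 and 0.21, Rbl1 to 0.23 and 0.24, and Rb1 to -0.15 and -0.29.

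E2f1 was lower in KI in cluster 4 of DN4. It had 434 UMIs and 48.9 CPM in 393 KI cells, against 550 UMIs and 92.9 CPM in 251 WT cells, a log2 ratio of -0.92 (-1.11 to -0.74) that lies just inside 2-fold. At a matched depth of 2000 UMIs per cell, 8.91% (6.28 to 12.2) of KI cells and 15.1% (10.9 to 20.2) of WT cells had an E2f1 UMI, and without thinning 57.5% and 78.9% did. In cluster 5, 89.0% of KI and 95.1% of WT cells were called G1. The thinned share there was 1.74% (0.568 to 4.02, 5 of 287 cells) in KI. It was 0.645% (0.0782 to 2.31, 2 of 310 cells) in WT, and these intervals overlapped. In cluster 4 of DN3 the ratio was -0.19 (-0.37 to -0.00), at 79.5 CPM in KI and 90.4 CPM in WT. Whether the ratios of DN4 and DN3 differ was not tested.

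The phase calls and the border of cluster 4 moved with this difference. In cluster 4 of DN4, 58.5% of KI cells and 37.5% of WT cells were called G2M, the phase with less E2f1, and the 19 G2/M genes had a median log2 ratio of 0.56 in KI over WT. Within the S cells of that cluster E2f1 was at 82.6 CPM in KI and 126 CPM in WT (log2 -0.61, -0.83 to -0.39), and within the G2M cells at 27.2 CPM in KI and 42.4 CPM in WT (-0.64, -1.02 to -0.26). With clusters 3 and 4 summed, which was also added after seeing the data, E2f1 in DN4 was at 72.0 CPM in KI and 91.5 CPM in WT (-0.35, -0.46 to -0.23), with S cells at 92.0 CPM in KI and 116 CPM in WT. In DN3 the same sum gave 82.2 CPM in KI and 92.9 CPM in WT (-0.18, -0.33 to -0.02). Over the whole of DN4 the value was -0.17 (-0.28 to -0.06), and it came to 0.03 with each cell weighted equally and to -0.47 with the KI clusters weighted by the WT shares of UMIs.

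Ccne2 was lower in KI in cluster 4 at both stages and higher in KI in cluster 3 of DN4. In cluster 4 it stood at 12.7 CPM in KI DN4 and 22.1 CPM in WT DN4 (log2 -0.80, -1.17 to -0.42), and at 9.69 CPM in KI DN3 and 18.7 CPM in WT DN3 (-0.95, -1.42 to -0.49). In cluster 3 the ratio was 0.43 (0.03 to 0.84) in DN4 and -0.15 (-1.04 to 0.75) in DN3. Over whole libraries it was 0.04 (-0.21 to 0.29) in DN4 and -0.37 (-0.74 to -0.01) in DN3, and -0.27 and -0.65 with the KI clusters weighted by the WT shares of UMIs. In the S cells of cluster 4 the ratio was -0.32 (-0.75 to 0.10) in DN4 and -0.73 (-1.26 to -0.22) in DN3. Summing clusters 3 and 4 left 16.6 CPM in KI and 18.7 CPM in WT in DN4 (-0.17, -0.43 to 0.08), and 9.90 CPM in KI and 16.8 CPM in WT in DN3 (-0.76, -1.17 to -0.36). Of the sums in this paragraph with an interval, those of DN3 had it below 0 except in cluster 3, and that of cluster 4 as a whole was the one of DN4 that did. In DN3 the Ccne2 ratio was -0.19 in cluster 6 and -0.16 in clusters 0 and 1, with intervals that included 0.

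In cluster 3 Ccne1 and E2f8 were higher in KI at both stages, and with clusters 3 and 4 joined their intervals included 0. Besides Ccne2, Rbl1 was higher in KI in cluster 3 of DN4 (log2 0.39, 0.02 to 0.77), with -0.30 in cluster 3 of DN3 and an interval there that included 0. Ccne1 stood at 37.2 CPM in KI DN4 and 24.1 CPM in WT DN4 (log2 0.62, 0.32 to 0.93), and at 21.4 CPM in KI DN3 and 12.2 CPM in WT DN3 (0.81, 0.07 to 1.60). E2f8 stood at 25.0 CPM in KI DN4 and 14.2 CPM in WT DN4 (0.82, 0.43 to 1.22), and at 10.9 CPM in KI DN3 and 4.45 CPM in WT DN3 (1.29, 0.12 to 2.64, from 27 and 8 UMIs). In cluster 3 of DN4, 83.2% of KI and 73.1% of WT cells were called S, and 2.87% and 9.92% G1. Its S cells had 42.9 CPM of Ccne1 in KI and 29.8 CPM in WT, and 29.1 and 17.9 CPM of E2f8. Ccne2 was there at 21.3 CPM (18.7 to 24.1) in KI and 16.8 CPM (12.7 to 21.7) in WT. Rbl1 was at 23.5 CPM (20.8 to 26.4) in KI and 20.5 CPM (16.0 to 25.9) in WT, so the intervals overlapped for both. The part of the phase makeup was not tested. With clusters 3 and 4 summed Ccne1 came to 0.17 (-0.02 to 0.37) in DN4 and 0.16 (-0.16 to 0.49) in DN3, and E2f8 to 0.12 (-0.06 to 0.30) in DN4 and 0.07 (-0.19 to 0.33) in DN3. The S cells of that sum still had more Ccne1 in KI DN4, at 44.0 CPM in KI and 36.3 CPM in WT (0.28, 0.07 to 0.49). In the S cells of cluster 4 of DN4 E2f8 was at 77.1 CPM in KI and 51.3 CPM in WT (0.59, 0.31 to 0.87), and in the G2M cells at 44.5 CPM in KI and 48.4 CPM in WT (-0.12, -0.45 to 0.21).

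E2f2 in clusters 3 and 4 together was at 62.6 CPM in KI DN4 and 70.6 CPM in WT DN4 (-0.17, -0.30 to -0.04), and at 46.7 CPM in KI DN3 and 49.7 CPM in WT DN3 (-0.09, -0.30 to 0.12). Intervals of E2f3 and E2f7 included 0 in every cluster comparison that gave a ratio. Within the S cells of cluster 4 they did not in 2 cases: E2f3 was at 20.3 CPM in KI DN3 and 30.3 CPM in WT DN3 (-0.58, -1.04 to -0.11), and E2f7 had 20 UMIs in KI DN4 and 8 in WT DN4 (1.36, 0.11 to 2.75). Those of Cdc25a did except in cluster 4 of DN4 (-0.25, -0.50 to -0.00). E2f3 in the G1 cells of cluster 6 was at 30.6 CPM in KI and 10.6 CPM in WT, from 15 and 7 UMIs (1.52, 0.14 to 3.06). Rb1 in clusters 3 and 4 together was at 8.78 CPM in KI DN3 and 12.1 CPM in WT DN3 (-0.46, -0.92 to -0.00). In cluster 6 as a whole and in clusters 0 and 1 no member had an interval that excluded 0. There E2f1 was at 110.2 CPM in KI and 109 CPM in WT in cluster 6 (0.02, -0.22 to 0.25).

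**Figure D4:**
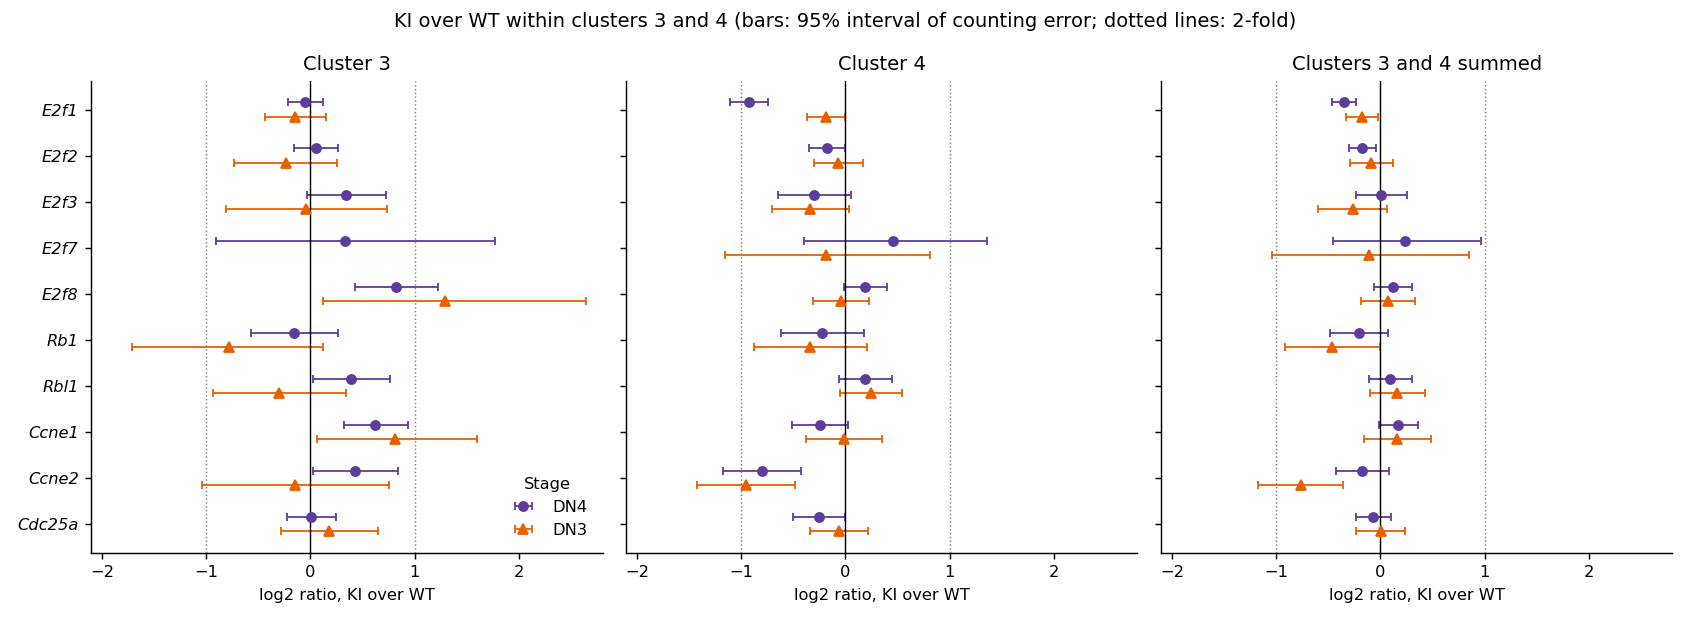
KI over WT log2 ratio of each gene (horizontal axis) in cluster 3, cluster 4 and both summed, for DN4 (circles) and DN3 (triangles), with 95% intervals of counting error; dotted lines mark 2-fold, and E2f7 in cluster 3 of DN3, with 2 UMIs in KI and 1 in WT, is not drawn. E2f1 in cluster 4 of DN4, at -0.92, and Ccne2 in cluster 4, at -0.80 in DN4 and -0.95 in DN3, lie farthest below 0, and E2f1 in DN4 and Ccne2 in DN3 stay below 0 in the summed panel.

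Cells with and without a productive T cell receptor beta (TRB) chain were compared inside cluster 6 of DN3, since this chain drives beta-selection. The comparison was also made inside clusters 0 and 1, and its values are not given here. A productive TRB was recorded for 728 KI DN3 and 597 WT DN3 cells of the matrix. In cluster 6 these were 198 of 290 KI and 173 of 243 WT cells. The other cells had no productive TRB contig recorded, which does not show that the chain was absent. Trdc, a gamma delta T marker, stood at 302 CPM in cluster 6 over all libraries, against 256 CPM in clusters 0 and 1. The part of gamma delta cells among those without a TRB was not tested. E2f1 intervals included 0: cells with a TRB had 104 CPM and cells without had 122 CPM in KI (log2 -0.22, -0.56 to 0.13), and 112 CPM and 99.6 CPM in WT (0.17, -0.21 to 0.57). E2f2 was lower with a TRB in KI, at 9.69 CPM against 34.8 CPM (-1.84, -2.76 to -0.97, from 18 and 32 UMIs), and in WT it stood at 15.5 CPM against 10.6 CPM (0.54, -0.61 to 1.88). Ccne2 in KI gave -2.01 (-3.91 to -0.33) from 5 and 10 UMIs, and 0.29 (-1.40 to 2.36) in WT. The difference between the genotypes was not tested.

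Likeness of pattern was described over 17 sums, each 1 cluster of 1 library with at least 50 cells, as Pearson's r of log2(CPM + 1) with 5550 genes. These sums share libraries, clusters and depth, so the values carry no test. The genes most like E2f1 were Mcm4 (0.98), Rpa2 (0.97) and Mcm3 (0.97), and those most like Ccne2 were Cdt1 (0.98), Anp32b (0.98) and Orc6 (0.98). E2f2 was most like Cenpp (0.98), Cmc2 (0.97) and Fbxo5 (0.97), E2f8 like Ccdc34 (0.99), Ncapg (0.98) and Sumo2 (0.98), and Rbl1 like Pkmyt1 (0.97), Smc1a (0.96) and Fkbp2 (0.95). Rb1 was most like Tspan32 (0.94), Nfatc3 (0.94) and Tlk1 (0.93), Ccne1 like Gtf2a2 (0.96), Psmc3 (0.95) and Pclaf (0.95), and Cdc25a like Pole3 (0.97), Atp5c1 (0.95) and Eif4h (0.95). E2f3 was most like Hmox2 (0.90), 4930579G24Rik (0.89) and Ppp1cc (0.89), and E2f7 like Mxd3 (0.95), Kif22 (0.95) and Kif20a (0.95). Among the members themselves the highest values were 0.95 for E2f2 with E2f8 and 0.92 for both E2f1 with Ccne2 and E2f7 with E2f8, while Rb1 was negative with 8 of the other 9, down to -0.75 with Cdc25a.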

How the data were processed

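Single thymocytes were profiled with 5′ gene expression and T cell receptor libraries. The build mm10 and 2 versions of Cell Ranger, 6.0.1 and 3.1.0, are listed in the submitters' processing notes, with no role for either version. The authors deposited raw UMI counts per gene and cell (15653 genes, 10237 cells) and other columns with each cell's library, cluster and phase call; how these were made is not given. Cells with a productive TRB were those with a deposited receptor contig marked as TRB and productive.

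From these, UMIs were summed over cells of a library, cluster or phase and scaled to CPM by the total (numpy 2.4.6, scipy 1.17.1). Ratios carry exact conditional 95% intervals, and zeros a limit of 3 counts. Scrublet (scanpy 1.11.5) called 73 cells doublets (0.713%), under 0.5% in both DN3 libraries, so the caller cannot be taken to have worked there; all cells were kept. Shares were compared after thinning each cell to 2000 UMIs. The ratios with their intervals were tested on simulated counts that held counting error alone. TMM scaling was checked only on a simulated sum against itself times a constant. That check cannot show how TMM handles a shift in makeup. Thinning and doublet calling were not tested.

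The 10 members are named in every comparison, with the first 3 genes of each list, in written order, at 20 CPM or more, and the 3 genes likest each member; all genes 2-fold apart count toward the shares given. Members and lists were chosen with earlier results of these data known. Gene positions are from GENCODE M21 (GRCm38). An additive genotype and stage model would leave 1 residual degree of freedom and was not fitted.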

Additional observations from a re-analysis of the deposited data

How the results depend on the processing

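Counts of members 2-fold apart were recomputed under each alternative. TMM scaling, leaving out called doublets, leaving out clusters 2, 5 and 7, weighting KI clusters by WT shares and summing clusters 3 and 4 moved no count by over 1.5 times; the last 2 were chosen after seeing the data. With each cell weighted equally the counts were 1 for KI DN4 against KI DN3, 1 for WT DN4 against WT DN3, 0 for cluster 3 against 6 in KI, and, for cluster 4 against 3, 2 in KI DN3 and 1 in WT DN4. With no filter they were 4 for KI DN4 against KI DN3, 5 in each library for cluster 6 against clusters 0 and 1, 2 in each for cluster 3 against 6, 2 in KI DN4, KI DN3 and WT DN3 for cluster 4 against 3, and 1 for KI against WT in cluster 3 of DN3. With a filter of 5 CPM they were 4 for cluster 6 against clusters 0 and 1 in KI, 2 in each library for cluster 3 against 6, and 1 for KI against WT in cluster 3 of DN3. With a 1.5-fold threshold they were 3 for cluster 3 against 6 in KI, 3 in KI DN4, 4 in WT DN4, 3 in KI DN3 and 3 in WT DN3 for cluster 4 against 3, and, for KI against WT, 2 in cluster 3 of DN4, 2 in cluster 4 of DN4 and 1 in cluster 3 of DN3. The filters and the threshold change which genes are counted. With equal weighting the DN4 over DN3 log2 ratios were 1.72 for E2f8 and 2.29 for Ccne1 in KI, and 1.56 for E2f8, 1.46 for Rb1 and 2.41 for Ccne1 in WT, so the lower counts there come from levels under 20 CPM; Rbl1 in cluster 4 against 3 of WT DN4 came to 0.94. No called ratio changed sign. No paired analysis was possible because each group has 1 library and the replicate number 1 only. Counting error limits E2f7, and Ccne1, Ccne2 and E2f8 in resting cells, to a few UMIs each.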
